A study of Homo sapiens with 6 samples.

Results

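Mitochondrial ribosomal protein genes were taken as all rows whose Ensembl identifier belongs to a protein-coding gene with a symbol that starts with MRPL or MRPS followed by a digit. The table held 76 of them among 48162 genes, 48 named MRPL and 28 named MRPS. MRPS21 and MRPL45 were not matched by identifier and were not analysed here. RNA sequencing was done on SiHa cells, a line established from a human cervical cancer that carries human papillomavirus. The cells received si-CNN3#1, which is a small interfering RNA directed at CNN3 (calponin 3, an actin-binding protein), or the control si-NC, and there were 3 samples of each. Per the labels the transfection medium was replaced after 24 h (the study's methods give an earlier time) and RNA was taken at 48 h in both groups. The comparison asks which transcripts differ once CNN3 is reduced, here those of the mitochondrial ribosome. A single siRNA was used for the knockdown in these samples, so other effects of this siRNA cannot be told apart from those of reduced CNN3. The study describes its samples as biological replicates from independent experiments, while the labels give only a number per sample, so p-values measure the spread between these samples.

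Mitochondria keep their own ribosomes, which translate the few messages of mitochondrial DNA into core subunits of the respiratory chain and the ATP synthase. The ribosomal RNAs are made in the mitochondrion, but every protein of this ribosome is encoded in the nucleus, made in the cytosol and imported. Some of these proteins have counterparts in bacterial ribosomes and others exist only in mitochondria. The name does not always give the subunit. MRPS30 and MRPS18A sit in the large subunit, and MRPS36 is now known as a part of the 2-oxoglutarate dehydrogenase complex, so the members held 50 proteins of the large subunit, 25 of the small subunit and MRPS36.

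Total counts ran from 18147028 to 24976517 per sample, and the si-CNN3 samples were the 3 shallowest. CNN3 had 490, 514 and 574 counts with si-CNN3 against 1134, 1288 and 1234 with si-NC, a log2 fold change of -0.97 (SE 0.06, adjusted p = 2.04e-20). Epithelial markers KRT8, KRT18, KRT7 and CDKN2A were abundant in all samples, while KRT5 stayed between 4 and 11 counts, and among the 8 tested of the 9 epithelial markers KRT8 and KRT18 were lower and TP63 was higher with si-CNN3. The 12 markers of other cell types found summed to 15.3 to 16.7 CPM (counts scaled to library size) with si-CNN3 and to 15.9, 23.4 and 16.2 CPM with si-NC, and DES had at most 1 count. The high sum, in si-NC 2, came with 185 counts of HBB (a haemoglobin chain), which had 0 counts in the other 5 samples. Values without si-NC 2 are given below where they differ.

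Transcription of nuclear genes for mitochondrial proteins is known to use NRF1, GABPA and YY1, and the promoters of the members were read for the letters that these factors are known to bind. The words searched on both strands were GCGCATGC for NRF1, CCGGAAG for GABPA and AAGATGG for YY1. RefSeq promoter windows of GRCh38.p14, from 250 bases before to 50 bases after the start, were at hand for 67 members. MRPL2, MRPL10, MRPL13, MRPL15, MRPL21, MRPL23, MRPL35, MRPS28 and MRPS36 were without one. The stretches below run from 100 bases before to 30 bases after the start, 5′ to 3′ along the gene, with matches in capitals. The first 4 are shown because they belong to the called members with a window, MRPL20 because it holds 2 GABPA words and a YY1 word, and MRPL17 because it holds 3 overlapping or neighbouring NRF1 words.
MRPL33, chr2:27771619-27771748, plus strand: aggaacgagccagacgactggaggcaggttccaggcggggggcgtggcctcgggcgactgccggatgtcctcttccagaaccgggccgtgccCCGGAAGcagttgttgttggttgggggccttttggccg
MRPL47, chr3:179604609-179604738, minus strand: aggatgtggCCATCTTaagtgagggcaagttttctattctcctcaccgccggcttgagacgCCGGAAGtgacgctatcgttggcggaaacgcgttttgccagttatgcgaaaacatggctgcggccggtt
MRPL40, chr22:19432445-19432574, plus strand: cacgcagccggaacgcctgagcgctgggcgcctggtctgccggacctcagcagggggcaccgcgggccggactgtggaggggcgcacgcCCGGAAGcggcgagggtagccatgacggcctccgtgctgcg
MRPL3, chr3:131502942-131503071, minus strand: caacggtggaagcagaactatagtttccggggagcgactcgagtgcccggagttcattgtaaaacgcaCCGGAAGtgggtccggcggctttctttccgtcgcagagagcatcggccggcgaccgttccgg
MRPL20, chr1:1407264-1407393, minus strand: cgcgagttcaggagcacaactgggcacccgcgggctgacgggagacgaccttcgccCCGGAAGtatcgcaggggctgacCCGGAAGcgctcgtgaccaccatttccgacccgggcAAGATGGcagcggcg
MRPL17, chr11:6683311-6683440, minus strand: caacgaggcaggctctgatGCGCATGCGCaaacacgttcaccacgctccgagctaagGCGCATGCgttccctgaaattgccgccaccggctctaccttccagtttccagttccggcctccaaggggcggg

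The GABPA word stood in 28 of 67 member promoters (41.8%), against 10.7% of 27305 RefSeq promoters of the same length and 18.6% of the promoters of tested genes. The YY1 word stood in 22 (32.8%), against 6.06% and 7.41%. The NRF1 word stood in 6 (8.96%), against 3.27% and 5.54%. Any of the 3 was found in 42 (62.7%), against 18.2% and 28.03%. The median GC content of the member windows was 60.3%, against 65.3% for the tested genes and 58.3% for all promoters. Of 37 GABPA matches, 26 began between 60 bases before and 10 bases after the start, as in the stretches of MRPL33, MRPL40, MRPL3 and MRPL47, where the word begins 8, 11, 32 and 39 bases before the start. The YY1 word had 23 matches, and all 15 that lay after the start ran along the strand of the gene, as in MRPL20, where it begins at base 16. This word contains the letters of a start codon. In the 250 bases before the start alone, the YY1 word was found in 10.4% of member promoters, against 3.77% of all promoters, and any of the 3 words in 46.3%. In MRPL17 the NRF1 word is read on both strands at nearly the same place, because it is close to its own reverse complement. These matches describe the letters and no binding was measured.

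**Figure D1:**
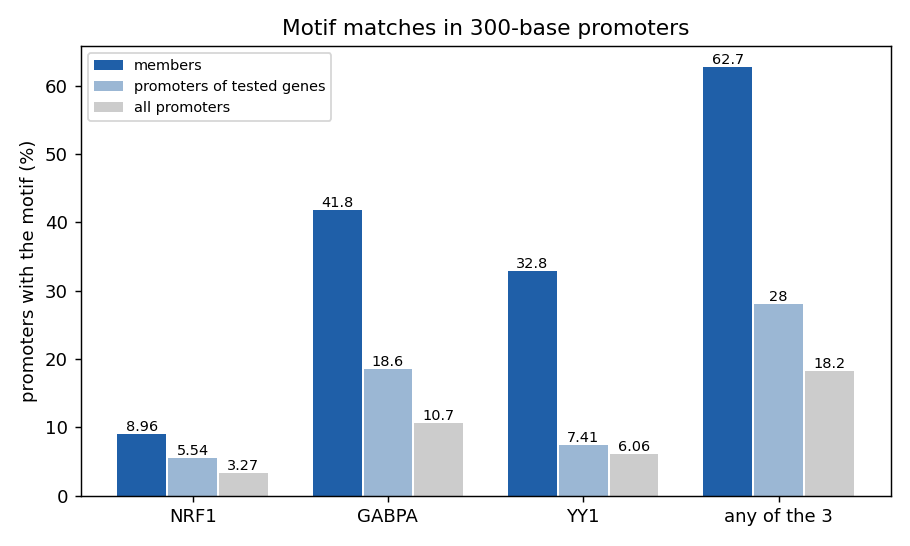
Share of promoters (percent, vertical axis) that hold the NRF1, GABPA or YY1 word, or any of the 3, in 67 member promoters, 10570 promoters of tested genes and 27305 RefSeq promoters, all 300 bases long. The member bars are the tallest of each group, with 41.8% for GABPA and 32.8% for YY1.

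Levels were compared between genes per length, as deposited FPKM (fragments scaled to transcript length and library size). In si-NC the median over the 75 tested members was 42.1 FPKM, against 12.4 for all tested genes and 700 for the tested cytosolic ribosomal protein genes. The 13 protein-coding genes of mitochondrial DNA, whose messages this ribosome translates, had a median of 2078 FPKM. Of the members, 62 lay between 10 and 100 FPKM, 6 above and 8 below. The highest was MRPL51 at 187 ± 2.2 FPKM (SD, n = 3), followed by MRPS34 at 162 ± 5.1, MRPL37 at 144 ± 2.7, MRPL36 at 142 ± 2.5 and MRPL3 at 128 ± 4.2. MRPL37 and MRPL36 differed by about their spread, and the other neighbours in this order by more than it. Over the 3 si-NC samples the coefficient of variation of a member's CPM had a median of 3.61%. The order of the members in si-NC was nearly that in si-CNN3 (Spearman's rho 0.997 over 76 genes, which share their libraries and lengths).

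The lowest members were MRPL30 at 0.039 FPKM, MRPS24 at 1.54 ± 0.46, MRPL38 at 2.57 ± 0.34, MRPL46 at 2.64 ± 0.34 and MRPL53 at 4.26 ± 0.44. MRPL12, which forms the stalk that recruits translation factors, was next at 4.55 FPKM, and its stalk partners MRPL10 and MRPL11 had 19.5 and 41.5. Proteins of 1 particle thus had transcripts at unlike levels in the deposited table, and the low ones shared a feature of annotation. In GENCODE 29, 41 members share exon bases with another gene, and 7 of the 8 members under 10 FPKM share them with a protein-coding gene on the same strand. The 13 members with such a same-strand overlap had a median of 7.19 FPKM, the 28 with any other overlap 45.6, and the 35 without overlap 44.6, with none of the 35 under 15.4. MRPL12 shares 701 exon bases, 68.2% of its own, with AC139530.2, which had 0 counts in every sample. MRPS24 shares 606 exon bases with the read-through gene URGCP-MRPS24, also at 0 counts throughout, and MRPL38 shares 1373 with AC087289.3, which had 0 to 2. MRPL30 itself had 1 to 4 counts per sample, and AC079447.1, with which it shares 564 exon bases, had 40 to 64. The relation is not a strict one. Among the 13 with a same-strand overlap, MRPL28, MRPS16, MRPL33, MRPS5 and MRPS6 had 76.8, 68.4, 63.0, 57.4 and 28.0 FPKM, and MRPS18C had 8.67 FPKM with an overlap on the opposite strand only. MRPL51, the highest member, shares 31.3% of its exon bases with NCAPD2, also on the opposite strand. Counters differ in whether a read that lies in 2 genes is counted, the setting used is not given in the sources used here, and its part in these levels was not tested.

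**Figure D2:**
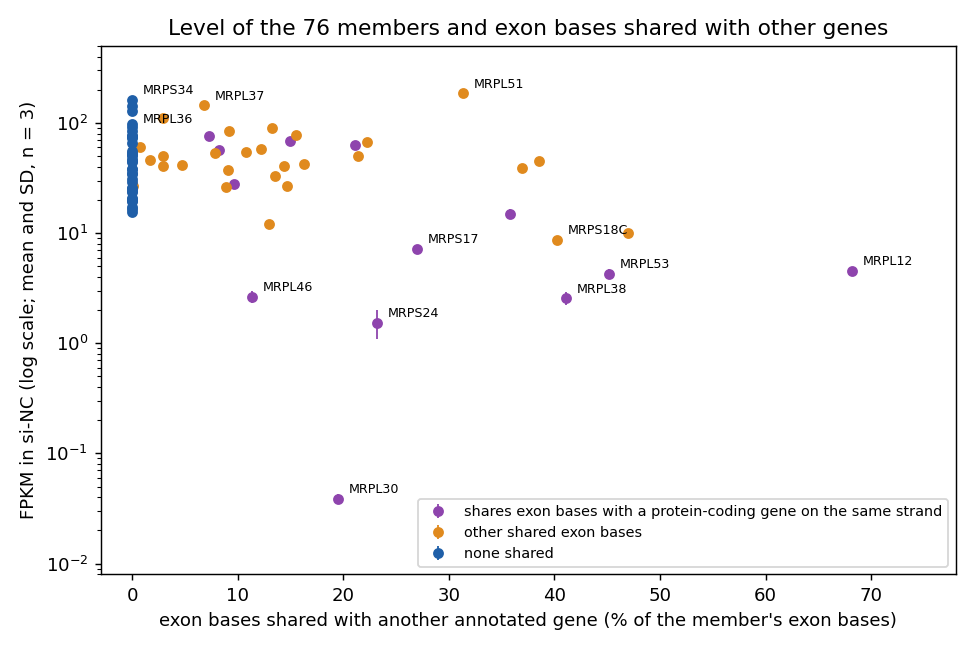
FPKM in si-NC (log scale, mean and SD of 3 samples) of the 76 members against the percentage of their exon bases shared with another gene in GENCODE 29. Of the 8 members under 10 FPKM, 7 share exon bases with a protein-coding gene on the same strand, while the 35 without shared bases lie at 15.4 FPKM or above.

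Few of the members differed between si-CNN3 and si-NC, and they differed little. MRPL33, MRPL47, MRPL13, MRPL40 and MRPL3 rose. MRPL33 reached 130% of its mean CPM in si-NC and the others 109% to 114%, while MRPL35 fell to 89.1%. All of these belong to the large subunit. The test was edgeR's quasi-likelihood test on the counts, adjusted by the Benjamini-Hochberg method over the 15860 genes tested, and a gene is called at an adjusted p of 0.05 or less. It called 6 of the 75 members tested (8.0%), against 13.3% of all tested genes, with 5 higher (6.67%, against 6.17%) and 1 lower (1.33%, against 7.14%). MRPL30 did not pass the filter on low counts. The share called was thus below that of all genes, and the share called higher was near it. These shares are a description only, since the members were chosen with earlier results of these data known. At an unadjusted p under 0.05 there were 16 members and 3978 of all genes. In bulk samples a change in the RNA of each cell and a change in the make-up of the cells cannot be told apart.

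MRPL33, a small protein of the large subunit with a bacterial counterpart, had 41.5, 39.7 and 42.8 CPM with si-CNN3 and 31.7, 29.5 and 34.3 CPM with si-NC. The groups lay far apart, with a log2 fold change of 0.38 (SE 0.05, adjusted p = 2.81e-07), the most significant change among the members. The gene lies at chr2:27771717-27988087 on the plus strand of GRCh38 and shares 324 exon bases, 21.1% of its own, with BABAM2 on the same strand. BABAM2 had 190 to 279 counts per sample and was not called, with a log2 fold change of 0.18 (SE 0.09, adjusted p = 0.178).

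MRPL47, which lies at the exit of the tunnel through which the new chain leaves the ribosome, had 45.4, 44.4 and 46.4 CPM with si-CNN3 and 38.8, 40.3 and 39.9 CPM with si-NC. All si-CNN3 samples were above all si-NC samples, with a log2 fold change of 0.19 (SE 0.05, adjusted p = 0.00315). The start of NDUFB5, a complex I subunit read in the other direction, lies 36 bases away, and NDUFB5 was not called, with a log2 fold change of 0.07 (SE 0.05, adjusted p = 0.35). MRPL33 and MRPL47 were called in all 19 alternative settings.

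MRPL13, a large-subunit protein with a bacterial counterpart, had 29.6, 31.2 and 34.6 CPM with si-CNN3, against 27.7, 27.1 and 28.6 with si-NC, so that the groups did not overlap and si-CNN3 3 stood highest. Its log2 fold change was 0.19 (SE 0.06, adjusted p = 0.0165), and the call was lost without si-CNN3 3 (adjusted p = 0.206), without si-NC 2 (adjusted p = 0.0756) and after a correction for length and GC content (adjusted p = 0.0599). MRPL40, a mitochondrial protein without bacterial counterpart in the central protuberance, had 63.9, 62.3 and 67.8 CPM with si-CNN3 and 58.8, 57.7 and 60.1 CPM with si-NC. The groups again did not overlap. Its log2 fold change was 0.14 (SE 0.04, adjusted p = 0.0217), and the call was lost without si-CNN3 3 (adjusted p = 0.166), si-NC 1 (adjusted p = 0.0539) or si-NC 2 (adjusted p = 0.105).

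MRPL3, one of the core proteins shared with bacteria, had 133, 121 and 127 CPM with si-CNN3 and 113, 118 and 120 CPM with si-NC. The lowest si-CNN3 sample was just above the highest si-NC sample. Its log2 fold change was 0.12 (SE 0.03, adjusted p = 0.0103), and the call was lost without si-CNN3 1 (adjusted p = 0.147) or si-NC 1 (adjusted p = 0.09) and after the length and GC correction (adjusted p = 0.0964). MRPL35, also with a bacterial counterpart, had 28.8, 28.6 and 30.6 CPM with si-CNN3 and 32.9, 33.9 and 31.9 CPM with si-NC. Every si-CNN3 sample was below every si-NC sample, with a log2 fold change of -0.17 (SE 0.05, adjusted p = 0.0306). This call was lost without si-CNN3 1, si-CNN3 2, si-NC 1 or si-NC 2, with adjusted p between 0.0691 and 0.143, and under scaling by total counts alone (adjusted p = 0.0595). DESeq2 and unfiltered limma on FPKM called neither MRPL13, MRPL40, MRPL3 nor MRPL35, and MRPL35 was also lost in both filtered limma fits.

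**Figure D3:**
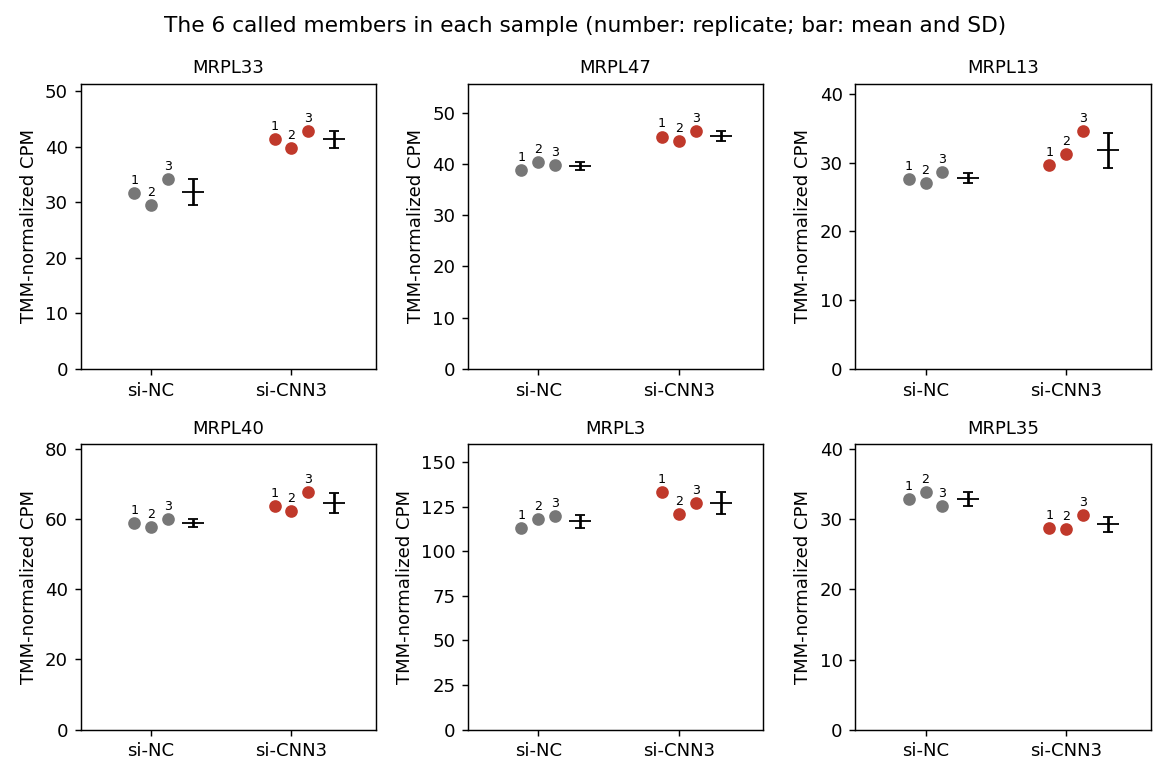
TMM-normalized CPM (vertical axes from 0) of the 6 called members in each of 3 si-NC and 3 si-CNN3 samples, with the mean and SD of each group beside the points. MRPL33 shows the widest gap, 29.5 to 34.3 against 39.7 to 42.8 CPM, and MRPL35 is the one with the lower si-CNN3 points.

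In 14 members the CPM of the groups did not overlap (18.7%, against 28.2% of all tested genes). Counted over all tested, 12 of 75 members were higher with si-CNN3 without overlap, against 2210 of 15860 genes (13.9%). MRPL35 and MRPL34 were lower, 2 of 75 against 2264 of 15860 (14.3%). The higher ones were the 5 called members with MRPL39, MRPL37, MRPL48, MRPL1, MRPL17, MRPS7 and MRPS11. MRPL39 had 36.3, 32.9 and 35.4 CPM against 30.8, 31.6 and 32.5, with a log2 fold change of 0.14 (SE 0.05, adjusted p = 0.0768). It was past the threshold without si-CNN3 2 (adjusted p = 0.0389), as was MRPL37 (adjusted p = 0.0361 against 0.0732 with all samples).

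The largest estimates belonged to members with few counts and did not pass the test. The 3 si-CNN3 samples held 43, 26 and 32 counts of MRPS24, against 31, 39 and 19 in si-NC, a log2 fold change of 0.42 (SE 0.24, adjusted p = 0.287). MRPL38, in the central protuberance, had 34, 34 and 22 counts against 36, 58 and 46, a log2 fold change of -0.39 (SE 0.21, adjusted p = 0.248). In both the groups overlapped in CPM. After MRPL38 and MRPL35, the lowest log2 fold changes were those of MRPL4 at -0.08 (SE 0.05, adjusted p = 0.242), MRPL19 at -0.08 (SE 0.05, adjusted p = 0.301) and MRPL41 at -0.07 (SE 0.04, adjusted p = 0.316), none past the test. Among the 70 members with at least 100 counts in every sample, no log2 fold change exceeded the 0.38 of MRPL33 in size.

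The members as a whole lay slightly to the higher side. The median log2 fold change was 0.04 over 75 members, against 0.0023 over all tested genes, and 59 members were above 0, against 8042 of 15860 genes. After the length and GC correction the medians were 0.02 for the members, with 52 above 0, and -0.01 for all genes, and with the replicate block added that of the members was 0.017. Changes were small, with 72 members (96.0%) under 0.2 in size, against 79.0% of all genes, and the median SE was 0.05. For 62 members the estimate with 1.96 SE to either side lay within 0.25 of 0. The summed CPM of the members was 3910, 3775 and 3923 with si-CNN3 and 3787, 3695 and 3804 with si-NC. The groups overlapped, since si-CNN3 2 lay below si-NC 1 and si-NC 3. Against each member's own mean over the 6 samples, 53, 27 and 56 of 75 members were above it in the si-CNN3 samples and 33, 17 and 35 in the si-NC samples. The median log2 deviation was 0.03, -0.02 and 0.04 with si-CNN3 and -0.01, -0.05 and -0.0043 with si-NC, so samples of 1 group differed among themselves about as much as the groups did. Without si-CNN3 2 the median log2 fold change was 0.06 with 61 members above 0, and without si-NC 2 it was 0.03 with 50 above 0.

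**Figure D4:**
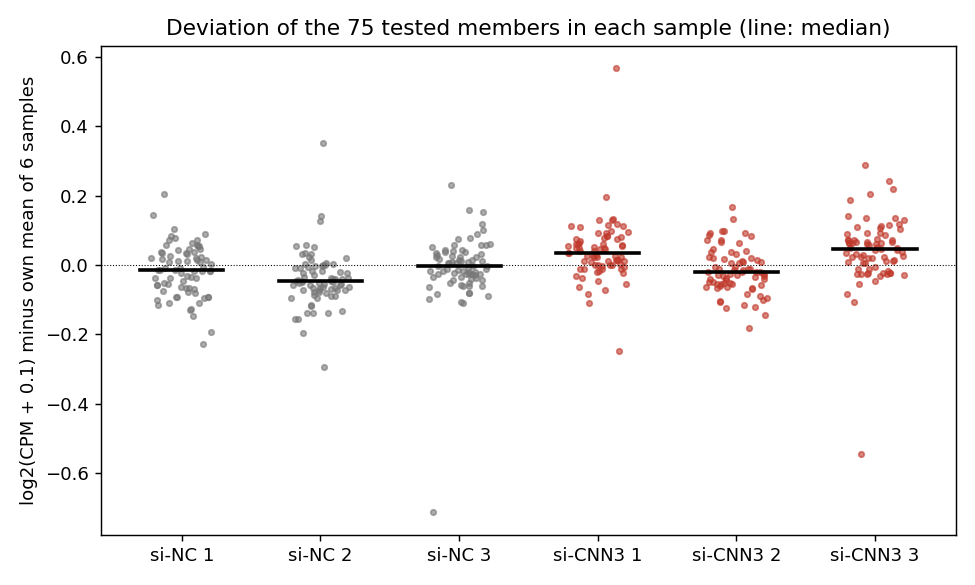
Deviation of log2(CPM + 0.1) from each member's own mean of 6 samples (vertical axis), for the 75 tested members in each sample, with the median as a line. The medians of si-CNN3 1 and 3 are the highest, and that of si-CNN3 2 (-0.02) is below those of si-NC 1 and 3.

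**Figure D5:**
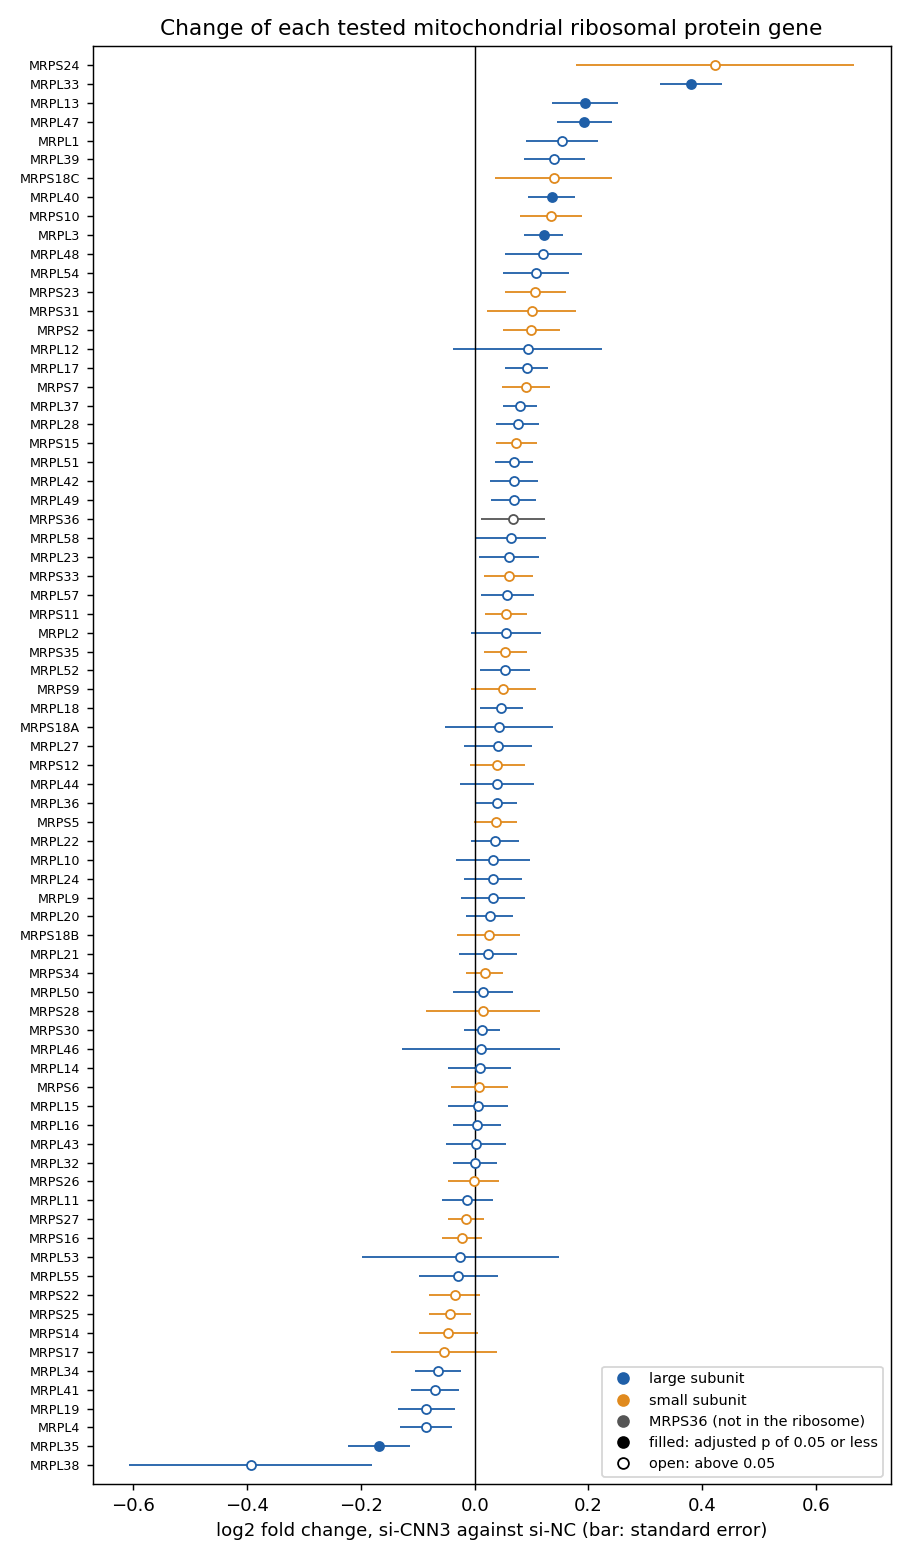
Log2 fold change of si-CNN3 against si-NC for the 75 tested members (horizontal axis, bars give the standard error), coloured by subunit and filled where the adjusted p is 0.05 or less. Most points lie close to and above 0, and the 6 filled points are large-subunit genes.

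By subunit, 6 of 49 tested large-subunit genes were called (12.2%, against 13.3% of all genes) and 0 of 25 small-subunit genes, of which 4 had an unadjusted p under 0.05. DESeq2 called 2 members, MRPL33 and MRPL47, and none of the small subunit. The median log2 fold change was 0.04 in both subunits, 40 of 49 and 18 of 25 genes were above 0, and whether the subunits differ was not tested. Small-subunit genes reached the threshold in 1 of the 19 alternatives, where MRPS10 was called without si-CNN3 1. By origin, 5 of the 45 tested genes with a bacterial counterpart were called and 1 of 29 without one (11.1% and 3.45%, against 13.3% of all genes), with median log2 fold changes of 0.04 and 0.05. The summed CPM of the large subunit was 2489, 2389 and 2492 with si-CNN3 and 2393, 2334 and 2403 with si-NC. That of the small subunit was 1391, 1356 and 1399 against 1365, 1330 and 1372. In both sums si-CNN3 2 fell below si-NC 1 and si-NC 3.

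The position lists that follow hold too few genes to set their counts against the 13.3% called among all genes. Within the large subunit, 1 of the 6 tested genes of the tunnel exit was called (MRPL47). The other tunnel-exit genes were MRPL17, MRPL22, MRPL23, MRPL24 and MRPL32, at log2 fold changes of 0.09, 0.04, 0.06, 0.03 and 0.00030. MRPL32 had the same sign in 10 of 19 alternative settings and MRPL24 in 17. None of the 3 stalk genes was called, and MRPL10, MRPL11 and MRPL12 stood at 0.03, -0.01 and 0.09. In the central protuberance, which contacts the small subunit, 1 of 9 was called (MRPL40), and 7 were above 0. MRPL58, a peptidyl-tRNA hydrolase built into this protuberance, stood at 0.06 (SE 0.06). In the small subunit, none of the 5 genes of the head was called. Among these MRPS7 had 65.8, 62.7 and 62.7 CPM with si-CNN3 against 62.2, 57.1 and 60.7, so that the groups were adjacent without overlap, with a log2 fold change of 0.09 (SE 0.04, adjusted p = 0.161). None of the 8 genes of the platform and body was called, and their log2 fold changes ran from -0.05 (MRPS17) to 0.14 (MRPS18C). MRPS36 stood at 0.07 (SE 0.06).

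The promoter words shown above were set beside the changes as a description. The 4 members called higher that have a promoter window (MRPL33, MRPL47, MRPL40 and MRPL3) all hold the GABPA word, as do 41.8% of member promoters. Only MRPL33 and MRPL47 kept their calls in all 19 alternative settings, against 14 for MRPL40 and 13 for MRPL3. MRPL13 and MRPL35, also called, have no window, and 6.17% of all tested genes were called higher. Of the 27 tested members with the word, 22 were above 0 with a median log2 fold change of 0.06, and of the 39 without it, 29 were above 0 with a median of 0.04. Members with the YY1 word had 1 called higher of 22, and the 6 with the NRF1 word had none. The transcript of GABPA was not called, at a log2 fold change of 0.05 (SE 0.03, adjusted p = 0.363), nor was that of NRF1 at -0.0028 (SE 0.05, adjusted p = 0.986). YY1 was lower at -0.09 (SE 0.03, adjusted p = 0.0316). Whether any of these factors takes part in the changes was not tested.

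Many members share their promoter or exons with another gene, and 18 have a protein-coding gene that starts within 1000 bases in the other direction. In 3 of these pairs the partner was called while the member was not. Of all tested protein-coding genes 15.7% were called. NDUFS6, a complex I subunit 34 bases from MRPL36, was higher at 0.14 (SE 0.03, adjusted p = 2.42e-04), with MRPL36 at 0.04 (SE 0.04). TCP1, a chaperonin subunit 63 bases from MRPL18, was higher at 0.10 (SE 0.03, adjusted p = 0.00657), with MRPL18 at 0.05 (SE 0.04). APBA3 was lower at -0.19 (SE 0.07, adjusted p = 0.0473), with MRPL54 at 0.11 (SE 0.06). Whether partner and member differ was not tested. TWNK, the helicase of mitochondrial DNA, shares 149 exon bases with MRPL43 on the opposite strand and was lower at -0.28 (SE 0.05, adjusted p = 1.62e-05), while MRPL43 had 38.0, 34.6 and 35.7 CPM against 37.7, 34.5 and 36.3 and stood at 0.00165 (SE 0.05). Other called neighbours that share exon bases were TMEM8A at 0.17 (MRPL28 at 0.08), FAU at 0.13 (MRPL49 at 0.07) and CACYBP at 0.09 (MRPS14 at -0.05). PTCD2 at 0.22 (MRPS27 at -0.02) and NCAPD2 at -0.08 (MRPL51 at 0.07) were also called. None of the members beside them was called. The TruSeq RNA kit named in the labels does not mark the strand, so reads in shared exon bases cannot be assigned by strand. Pseudogenes named after the members analysed, 59 in all, summed to 28 to 37 counts per sample, and they reached at most 8.70% of the parent's count, for MRPL53 and MRPS17.

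The mitochondrial ribosome also holds proteins under other names. GADD45GIP1, a protein of the large subunit, had 87.4, 86.2 and 87.1 CPM with si-CNN3 and 77.9, 79.3 and 78.02 CPM with si-NC. It was higher with a log2 fold change of 0.15 (SE 0.04, adjusted p = 0.00248). DAP3, AURKAIP1, PTCD3 and CHCHD1, of the small subunit, were not called, at -0.02, 0.06, -0.06 and -0.10.

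Among proteins that act on this ribosome, 2 of 25 assembly factors were called, with RPUSD4, a pseudouridine synthase of mitochondrial RNA, higher at 0.24 (SE 0.05, adjusted p = 0.00128) and DDX28, an RNA helicase, lower at -0.15 (SE 0.05, adjusted p = 0.0343). Of 15 translation factors and mRNA-binding proteins 1 was called, SLIRP, a partner of the protein that stabilises mitochondrial messages, at 55.9, 56.7 and 62.7 CPM against 50.04, 52.1 and 51.1 (log2 fold change 0.19, SE 0.05, adjusted p = 0.0018). The shares called were 8.0% and 6.67%, against 13.3% of all genes, and both lists hold too few genes to weigh these shares.

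Of the 13 protein-coding genes of mitochondrial DNA, MT-CO1, MT-CO3 and MT-ATP6 were lower, at log2 fold changes of -0.14, -0.08 and -0.08 with adjusted p of 2.62e-05, 0.0153 and 0.029. In all, 10 of 13 were below 0, against 49.3% of all genes, and 3 were above 0, up to 0.16. The median log2 fold change of the 13 was only -0.015. The share called was 23.1%, all lower, against 7.14% lower among all genes. These genes had a median of 25475 counts and a median SE of 0.025, against 429 and 0.066 for all genes, so smaller changes could pass the test. Of the cytosolic ribosomal protein genes, at a median of 13225 counts, 24.1% were called and 15.7% were lower. The summed CPM of the mitochondrial DNA genes was 30823, 29921 and 29698 with si-CNN3 and 32664, 31100 and 31773 with si-NC, so that the groups did not overlap. Of 12 regulators of mitochondrial transcription and of these nuclear genes 3 were called, all lower, against 7.14% lower among all genes. This list, like the members and the other gene lists, was chosen with earlier results of these data known. Its share cannot be weighed against that of all genes, and the same holds for theirs. TFAM, which packages mitochondrial DNA and starts its transcription, had 111, 117 and 121 CPM against 157, 167 and 163, a log2 fold change of -0.48 (SE 0.03, adjusted p = 2.21e-17). MYC was lower at -0.18 (SE 0.03, adjusted p = 5.03e-05), and YY1 is given above.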

How the data were processed

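RNA sequencing of SiHa cells was analysed in 6 samples, 3 per group, grouped and numbered by their labels. The authors deposited raw counts per Ensembl gene and, made from the same counts, FPKM values, and count divided by length and column total returned the deposited FPKM for 100% of 146253 values above 0 (relative tolerance 1e-06). The submitters' processing notes name TopHat2 2.0.9, Bowtie2 2.0.6, HTSeq and DESeq 1.10.1. The genome build, annotation and strand setting are not given in the sources used here. The authors' own comparisons, where any were given, were not used.

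Names, exons and coordinates came from GENCODE 29 on GRCh38, which named 45342 of 48162 identifiers. The remaining 2820 stayed in the tests. Counts were tested with edgeR 4.0.16 (R 4.3.3) after TMM scaling and filterByExpr (15860 genes, no covariate), with DESeq2 1.42.0, limma 3.58.1 on log2 FPKM with a pseudocount of 1 or 0.1, other scalings, filters, a length and GC correction, thinned counts and leaving out each sample as alternatives. CPM are TMM-normalized. Depth of 18147028 to 24976517 counts sets the precision, and SEs are on the log2 scale.

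The members and all gene lists were chosen with earlier results of these data known. Members were named if called, among the 5 largest changes in either direction, among the 5 highest or lowest levels, not passing the filter, in a described position list, or overlapping or sharing a promoter with another gene. Other genes were named if called in a related list. MRPL39, MRPL37, MRPL48, MRPL1, MRPL20 and the factors GABPA and NRF1 were partly named after their values were seen. Chi-square per degree of freedom was 1.56 to 1.98 within groups and 4.16 to 5.45 between them, so no sample was a second sequencing of another's library. These values cannot tell whether the samples of a group came from separate cultures.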

Additional observations from a re-analysis of the deposited data

How the results depend on the processing

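Over 19 alternatives, MRPL33 and MRPL47 kept their calls, MRPL13 and MRPL40 kept theirs in 14, MRPL3 in 13 and MRPL35 in 10. The count of 6 members called, 5 higher and 1 lower, became 8 higher and 0 lower with total-count scaling, 2 higher and 0 lower with DESeq2 or with limma (pseudocount 1) on unfiltered FPKM, 9 higher and 0 lower with limma at a mean of at least 1 FPKM, 8 higher and 0 lower with a pseudocount of 0.1, and 3 higher with 1 lower after the length and GC correction. The cause was not tested. Leaving out 1 sample gave 3 to 7 called, 3 to 7 higher and 0 to 1 lower, with 3 called without si-NC 1 or si-NC 2. The 10 related genes called became 3 with limma on unfiltered FPKM, 6 to 10 when 1 sample was left out, 15 with the replicate block (with or without the length and GC correction) and 8 to 11 otherwise. Of all genes, 2111 were called in edgeR, 1074 in DESeq2, and by limma 1363, 585 when unfiltered and 1353 with the lower pseudocount. With total-count scaling 60.0% of all calls were higher, with limma 58.6%, and with edgeR and TMM 46.3%. The median of the members minus that of all genes stayed between 0.03 and 0.06, and the median itself was 0.02 after the length and GC correction. MRPL46, near 0, turned to -0.0199 in that correction, to -0.0238 with the block added and to -0.0443 in thinned counts. With 1 sample left out, MRPL46 ran from -0.148 to 0.127, MRPL53 from -0.103 to 0.0598 and MRPS34 from -0.0043 to 0.0501. Promoter shares before the start alone were 10.4% for YY1 and 46.3% for any word. Of 473 values of 25 single members, 423 kept side and direction, 25 lost the threshold, 15 gained it and 10 changed sign.

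Same-numbered samples of the groups correlated at 0.02, 0.06 and 0.03, under 0.1, and each sample correlated best with its own number. Pairing by number was thus weak at most, and the main test used no block. With the replicate number as a block, 7 members were called, 6 higher and 1 lower, MRPL37 with the 6 called before, and 2727 of all genes. The block changed no other call among the members, and the sign of MRPL32, near 0, was kept in 10 of 19 alternatives. MRPL30, at 1 to 4 counts, could not be tested, and the SE of MRPS24, at 19 to 43 counts, was 0.24.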
